A study of Mus musculus with 6 samples.

Results

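The genes described here are the cyclins that drive the G1 phase of the cell cycle, the kinases they activate and the inhibitors of those kinases. They are 10 of the 54532 genes in the expression table, found by symbol: the D-type cyclins Ccnd1, Ccnd2 and Ccnd3, the cyclin E gene Ccne1, the cyclin-dependent kinases (CDKs) Cdk4 and Cdk6, and the inhibitors Cdkn1b, Cdkn2a, Cdkn2c and Cdkn2d. RNA came from BM (bone marrow) that was taken from C57BL/6 mice at day 100 after transplantation. It gave 3 Phf6 WT libraries (WT 1, WT 2, WT 3) and 3 Phf6 KO libraries (KO 1, KO 2, KO 3), and values per library are listed in this order. In both groups the transplanted donor progenitors carried JAK3 M511I, an activated Janus kinase, from a retrovirus that also encodes GFP. JAK3 M511I in donor progenitors is known to lead to an acute leukemia of T-cell precursors (T-ALL). By the study's description, WT donors had the floxed Phf6 allele without Cre, and KO donors had the same allele with Vav1-Cre, which is active in blood cells. Recipients were male and lethally irradiated. The genotype labels of WT 2 and KO 2 name Phf7 and those of WT 3 and KO 3 name Phf8. They were read as Phf6, the gene that the series' design names. The labels do not state a sort of GFP-positive cells, so cells of the host or of other lineages may be part of each library, and they do not state that libraries of a group came from different mice, so p-values measure the spread between these libraries.

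A cell leaves G1 when D-type cyclins, bound to CDK4 or CDK6, begin to phosphorylate the retinoblastoma protein and its relatives, which releases E2F factors. Cyclin E with CDK2 completes the step. The INK4 inhibitors (products of Cdkn2a, Cdkn2b, Cdkn2c and Cdkn2d) bind CDK4 and CDK6, whereas p27, the product of Cdkn1b, binds cyclin-CDK complexes and restrains CDK2. In the T lineage, cyclin D3 with CDK6 is known for the expansion of thymocytes that have just made a pre-T receptor, and cyclin D2 is known for its induction by cytokines through STAT5. CDKN2A is often deleted in human T-ALL. Its mouse counterpart encodes the INK4 inhibitor p16 and, in another reading frame, Arf, which stabilizes p53 by binding Mdm2.

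Cdkn2a and Cdkn2c, the genes with higher values in the KO libraries, are shown by their promoters (RefSeq, GRCm38.p6, minus strand, each 250 bases before to 50 after a start site, 5′ to 3′). Cdkn2a has 2 start sites, and the first exons of its 2 annotated transcripts lie at chr4:89281986-89282192 (p16) and chr4:89294334-89294653 (Arf), with the first bases 12461 bases apart. Both transcripts share the following exon, so that 1 value per gene sums them and cannot tell p16 from Arf. Capitals mark a match to the E2F motif TTTCCCGC; the motif TTTGGCGC, the E-box CACGTG and the STAT motif TTCNNNGAA were searched as well, on both strands.
Cdkn2a, Arf start, chr4:89294570-89294869: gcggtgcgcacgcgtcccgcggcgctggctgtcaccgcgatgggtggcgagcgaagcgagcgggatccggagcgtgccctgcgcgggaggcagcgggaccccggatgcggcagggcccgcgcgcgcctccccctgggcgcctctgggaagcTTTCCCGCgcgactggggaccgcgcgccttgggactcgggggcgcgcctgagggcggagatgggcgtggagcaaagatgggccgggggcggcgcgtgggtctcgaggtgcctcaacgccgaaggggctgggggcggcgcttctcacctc
Cdkn2a, p16 start, chr4:89282143-89282442: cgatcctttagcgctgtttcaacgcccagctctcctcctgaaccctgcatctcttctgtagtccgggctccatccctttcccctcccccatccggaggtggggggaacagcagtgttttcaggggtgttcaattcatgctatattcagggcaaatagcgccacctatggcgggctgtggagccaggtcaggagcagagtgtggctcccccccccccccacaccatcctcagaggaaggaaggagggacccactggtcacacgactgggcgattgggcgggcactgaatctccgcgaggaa
Cdkn2c, upstream start, chr4:109666707-109667006: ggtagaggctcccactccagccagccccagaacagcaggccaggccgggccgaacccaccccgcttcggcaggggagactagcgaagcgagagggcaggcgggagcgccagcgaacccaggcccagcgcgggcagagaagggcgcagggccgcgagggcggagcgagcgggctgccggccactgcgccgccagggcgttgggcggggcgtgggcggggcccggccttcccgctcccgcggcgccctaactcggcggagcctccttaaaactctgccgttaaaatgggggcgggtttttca
The Arf window holds TTTCCCGC once, 99 bases before the start, and the other printed windows hold none of these motifs. TTTCCCGC was found in 1.07% and either E2F motif in 1.56% of 32851 promoter windows. Of the members, 8 had entries, with 11 windows in all; Ccnd1 and Ccnd2 had none. In the 11 windows the E-box occurred 4 times at Cdk4, once at Cdk6 and once at the downstream start of Cdkn2c, and 7.15% of all windows held it. A match describes letters, not binding.

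Between 13015823 and 18235095 fragments per library (called reads here) could be recovered from the table. The targeted gene, Phf6, overlapped between the groups through WT 2. It had 7.47, 3.67 and 8.02 FPKM (fragments scaled by gene length and a library size, the deposited unit) in WT and 6.73, 5.496 and 5.11 in KO libraries (limma, adjusted p = 0.893). Without WT 2 its groups did not overlap and the log2 difference was -0.37 (limma, adjusted p = 0.0992). A value per gene does not show a deletion of part of a gene, so each direction below rests on the labels. WT 2 stood apart: 17.1% of its reads fell in genes under 1000 bases, against 3.11% to 5.01% elsewhere. The size that scales its FPKM is smaller than its own reads (a ratio of reads to size of 1.55, against 0.827 to 0.994 in the other libraries), so that its FPKM stand higher than scaling by reads alone would put them. Results that rest on it are given with and without it. Of the marker lists of other cells, only that of erythroid cells overlapped between the groups in summed level. At an adjusted p under 0.05 (limma), 13.1% of all genes were higher and 13.3% lower in KO libraries. All 10 neutrophil markers were lower in KO libraries, with summed levels of 93.3 to 287 FPKM against 6785 to 95287, as were 4 of 8 monocyte and macrophage markers (11.3 to 27.4 against 590 to 4988 FPKM) and 5 of 6 NK cell markers (2.60 to 4.29 against 67.3 to 145 FPKM). Summed B cell markers stood at 1.10 to 1.39 FPKM in KO and 11.3 to 1074 in WT libraries, and 0 of 3 tested passed. Those of erythroid cells overlapped, at 65.7 to 159 and 150 to 61876 FPKM, and of 7 tested 1 was higher and 0 lower. Without WT 2, where 25.3% of all genes were lower, all 3 B cell markers tested and 3 of 7 erythroid markers were lower, and 1 erythroid marker was higher. Of 8 markers of immature thymocytes, among them Rag1 and Ptcra, 6 were higher in KO libraries. The whole list summed to 1181 to 1460 FPKM in KO and 468 to 923 in WT libraries. Rag1 had 0.0686, 1.71 and 0 FPKM in WT and 392, 457 and 338 in KO libraries. Ptcra had 0 FPKM in each WT library and 161, 167 and 137 in KO libraries. Cd8b1 of that list, named after its values were seen, ran the other way without passing, at 276, 788 and 293 FPKM in WT against 141, 130 and 114. Cd8a, also named after its values were seen, overlapped between the groups, at 189, 101 and 208 FPKM in WT against 321, 272 and 207. Cd8a and Cd8b1 together made up most of the sum of this list in each WT library. The T cell list summed to 839 to 973 FPKM in KO and 697 to 1546 in WT libraries. Of its 8 genes only Trac passed, with 196, 292 and 226 FPKM in WT and 41.8, 15.8 and 7.04 in KO libraries (limma, adjusted p = 0.00596). WT 2 gave the highest WT sum of each list here except NK cells, where it gave the lowest. In bulk RNA, fewer cells of a type and less RNA per cell cannot be told apart, and the part that cell makeup has in the values below was not tested.

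Across the members, the largest differences lay in 1 cyclin and 2 inhibitors. Cyclin D2 RNA was 18.0-fold lower in the KO libraries, and the INK4 genes Cdkn2a and Cdkn2c were 7.64-fold and 3.21-fold higher, as ratios of mean FPKM. Of the 10 members, 9 passed the filter on low values (at least 1 FPKM in at least 3 of 6 libraries), of which 8 had at least 1 FPKM in all 6 libraries and Cdkn2a in 5. Each was tested by limma on log2(FPKM + 1) over 13393 genes. Cdkn2a and Cdkn2c were higher past an adjusted p of 0.05, where 13.1% of all genes tested were higher, and Ccnd2 was lower, where 13.3% were lower. Together 3 of 9 (33.3%) passed, against 26.4% of all genes. The same 3 were the tested members whose groups did not overlap, which held for 49.1% of all genes. The counts therefore lie near the background, and the values of single genes follow.

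**Figure D1:**
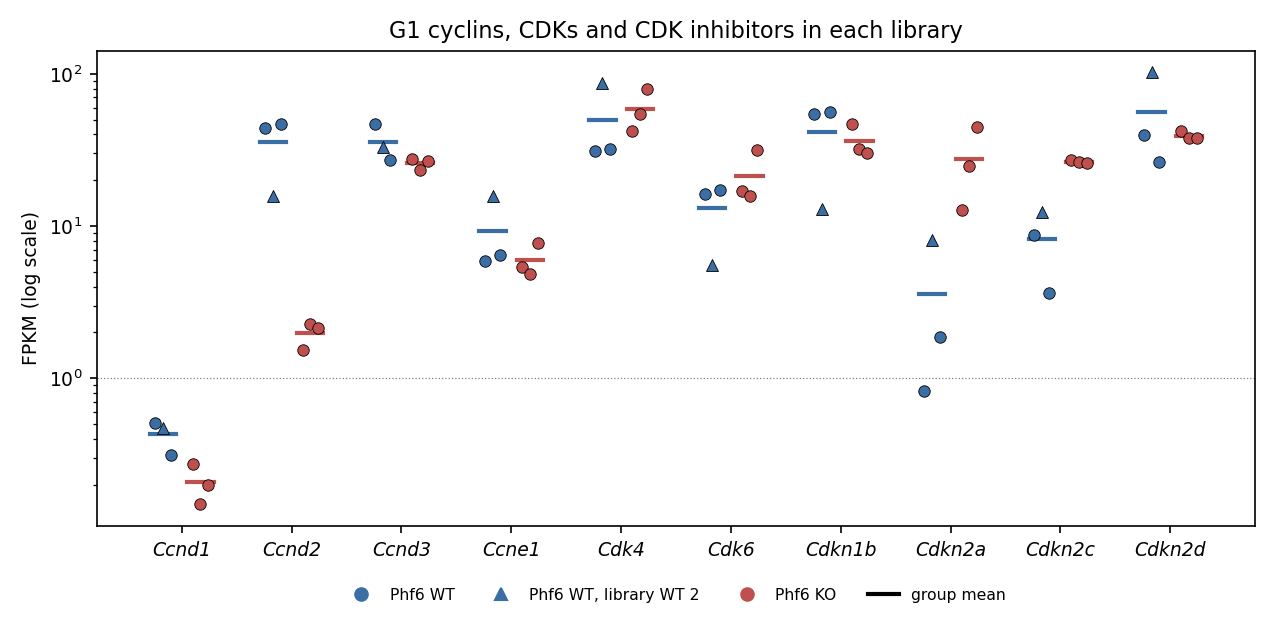
FPKM (log axis) of each member in each library; circles and triangles are libraries, the triangle is WT 2, and bars are group means (n = 3). Ccnd2 lies between 15.9 and 46.9 in WT and between 1.52 and 2.26 in KO libraries, Cdkn2a and Cdkn2c lie higher in all KO libraries, and the dotted line marks 1 FPKM.

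The D-type cyclins were examined first. Ccnd2 (ENSMUSG00000000184, GRCm38 chr6:127125162-127152193, minus strand) had 44.0, 15.9 and 46.9 FPKM in WT and 1.52, 2.26 and 2.13 in KO libraries. Every KO library lay far below the lowest WT library, WT 2. Reads were plentiful even at the low level, at 267, 335 and 323 in the KO libraries against 1755 to 6836 in the WT libraries. The mean was 35.6 ± 17.1 FPKM in WT and 1.97 ± 0.394 in KO libraries (SD, n = 3 each). On the log2(FPKM + 1) scale the difference was -3.49 ± 0.44 (standard error; limma, adjusted p = 0.00243). It kept its direction and passed the threshold in all 18 alternatives, between -4.02 and -3.06, with adjusted p-values from 8.95e-07 to 0.0383. Among these alternatives, median-of-ratios scaling repeated the main fit for every gene, since its factors were 1. Without WT 2 the ratio of means rose to 23.0-fold and the log2 difference was -3.97. Opposite-strand genes share up to 372 of its exonic bases and stood at most at 0.604 FPKM.

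Ccnd3 (ENSMUSG00000034165, chr17:47505051-47599691, plus strand), the D-type cyclin of expanding thymocytes, had 47.0, 33.2 and 27.0 FPKM in WT and 27.6, 23.2 and 26.7 in KO libraries. WT 3 lay within the range of the KO libraries, so the groups overlapped. The log2 difference of -0.42 (95% interval -1.08 to 0.24) did not pass (limma, adjusted p = 0.321). With array weights, which gave WT 2 little weight, it was -0.76 and passed (adjusted p = 0.00655; the 18 alternatives span 0.00655 to 0.643). Rescaled to TPM (values that sum alike in each library) it was 0.40, below the median of 0.86 over all genes. Ccnd3 shares 361 exonic bases with Bysl on the opposite strand (3.76 to 9.14 FPKM).

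Ccnd1 (ENSMUSG00000070348, chr7:144929931-144939925, minus strand), the cyclin D of many epithelial tissues, was under 1 FPKM in every library, which kept it out of the test. Its reads numbered 37, 26 and 23 in WT and 24, 11 and 15 in KO libraries, or 0.509, 0.470 and 0.315 against 0.274, 0.148 and 0.198 FPKM. The groups did not overlap in FPKM, but exact 95% Poisson intervals did, at 0.200 to 0.473 FPKM in WT 3 and 0.175 to 0.407 in KO 1. These intervals cover counting error only. With no filter on low values the log2 difference was -0.25 (limma, adjusted p = 0.165). In addition, 1100 exonic bases of Ccnd1 are shared with the gene LTO1 on the opposite strand (2.52 to 4.06 FPKM), and the use of strand in counting is not given in the sources used here.

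The makeup of D-type cyclin RNA differed accordingly. The 3 genes summed to 91.5, 49.6 and 74.2 FPKM in WT libraries, and all KO libraries lay below these, at 29.4, 25.6 and 29.0. Ccnd2 held 47.8% ± 15.6 of this sum in WT and 7.11% ± 1.84 in KO libraries (SD, n = 3 each). Ccnd3 held 51.6% ± 15.3 and 92.2% ± 1.66. The ratio of Ccnd3 to Ccnd2 per library was 1.07, 2.09 and 0.576 in WT and 18.1, 10.3 and 12.5 in KO libraries. These sums and shares compare genes per length and are given without a test.

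**Figure D2:**
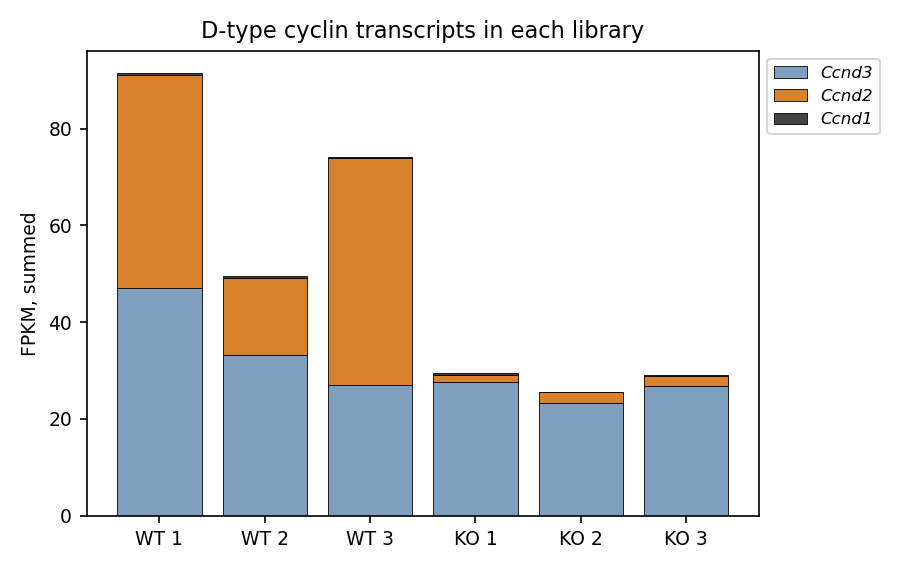
Summed FPKM of Ccnd3, Ccnd2 and Ccnd1 (stacked bars from 0) in each library. The sums are 49.6 to 91.5 in WT and 25.6 to 29.4 in KO libraries, and the Ccnd2 part is 5.17% to 8.82% of the sum in KO and 32.0% to 63.2% in WT libraries.

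The kinases that D-type cyclins activate gave no such difference over all libraries. Cdk4 (ENSMUSG00000006728, chr10:127063534-127067920, plus strand) had 31.2, 87.03 and 32.1 FPKM in WT and 42.2, 54.7 and 79.5 in KO libraries. WT 2 was the highest of all 6 libraries and WT 1 and WT 3 were the lowest. The log2 difference of 0.35 (95% interval -0.80 to 1.495) missed the threshold by limma, with an adjusted p of 0.639. In the 5 libraries other than WT 2 it was 0.83 and passed by limma (adjusted p = 0.0417, with 0.00870 to 0.920 over the 18 alternatives), a 1.86-fold higher mean. It also passed with array weights (0.85) and after rescaling to TPM (1.19), where the median over all genes was 0.86. Cdk4 shares 641 exonic bases with Tspan31 on the opposite strand (2.15 to 8.09 FPKM).

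Cdk6 (ENSMUSG00000040274, chr5:3341485-3531008, plus strand), the other kinase of D-type cyclins and the one most used by thymocytes, had 16.4, 5.59 and 17.3 FPKM in WT and 16.99, 15.8 and 31.5 in KO libraries. WT 2 was the lowest and KO 3 the highest, while the other libraries lay between 15.8 and 17.3. The log2 difference of 0.74 (95% interval -0.43 to 1.91) missed the threshold as well, with an adjusted p of 0.318 by limma, and was 0.26 when WT 2 was left out. The ratio of Cdk4 to Cdk6 was 1.91, 15.6 and 1.86 in WT and 2.48, 3.47 and 2.53 in KO libraries. Ccne1 (ENSMUSG00000002068, chr7:38097984-38107534, minus strand), which encodes cyclin E1, the partner of CDK2, had 5.89, 15.7 and 6.45 FPKM in WT and 5.40, 4.82 and 7.72 in KO libraries. Apart from WT 2 the groups lay over each other, and the log2 difference was -0.47 (95% interval -1.44 to 0.51; limma, adjusted p = 0.453), or -0.059 without WT 2.

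Among the inhibitors, p27 differed in direction with WT 2. Cdkn1b (ENSMUSG00000003031, chr6:134920401-134925513, plus strand) had 54.9, 12.99 and 56.4 FPKM in WT and 46.7, 32.3 and 30.3 in KO libraries. WT 1 and WT 3 lay above all KO libraries and WT 2 below them. The log2 difference was 0.049 (95% interval -1.36 to 1.45; limma, adjusted p = 0.962). Without WT 2 it was -0.62 and passed (adjusted p = 0.0468; the 18 alternatives span 0.0172 to 0.996), a mean 1.53-fold lower in KO libraries.

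Cdkn2a (ENSMUSG00000044303, chr4:89274471-89294653, minus strand) had 0.829, 8.06 and 1.87 FPKM in WT and 12.7, 24.8 and 44.7 in KO libraries, that is 15, 111 and 34 reads against 278, 458 and 843. Each KO library lay above WT 2, the highest WT library, and the KO libraries themselves spread widely. The mean was 3.59 ± 3.91 FPKM in WT and 27.4 ± 16.1 in KO libraries (SD, n = 3 each). The log2 difference was 2.80 ± 0.70 (standard error; limma, adjusted p = 0.0276). It did not pass without WT 1 (2.31, adjusted p = 0.0770), WT 3 (2.64, 0.0729), KO 2 (2.79, 0.0974) or KO 3 (2.38, 0.105), nor with no filter on low values (adjusted p = 0.0568), but kept its direction in all 18 alternatives (2.31 to 3.95; adjusted p = 8.30e-05 to 0.105). Without WT 2 the mean was 20.3-fold higher in KO libraries and the log2 difference was 3.46.

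Cdkn2c (ENSMUSG00000028551, chr4:109660876-109667189, minus strand), which encodes the INK4 inhibitor p18, had 8.68, 12.4 and 3.65 FPKM in WT and 27.0, 26.3 and 26.2 in KO libraries. The KO libraries were nearly alike, all above the highest WT library, WT 2, while the WT libraries spread. The mean was 8.24 ± 4.38 FPKM in WT and 26.5 ± 0.470 in KO libraries (SD, n = 3 each), and the log2 difference was 1.70 ± 0.41 (standard error; limma, adjusted p = 0.0239). It did not pass without WT 1 (1.80, adjusted p = 0.0562), KO 1 (1.69, 0.0897), KO 2 (1.71, 0.0906) or KO 3 (1.71, 0.0883), and stayed positive in all 18 alternatives (1.27 to 2.62; adjusted p = 0.000335 to 0.0906). Without WT 2 it was 2.03, a 4.29-fold higher mean.

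Cdkn2d (ENSMUSG00000096472, chr9:21288410-21291407, minus strand), which encodes another INK4 inhibitor, had 39.7, 102 and 26.4 FPKM in WT and 42.3, 37.7 and 37.7 in KO libraries. WT 2 was far above the others and the groups overlapped. The log2 difference was -0.28 (95% interval -1.46 to 0.91; limma, adjusted p = 0.728), and 0.27 without WT 2. Cdkn2b, the neighbour of Cdkn2a and no member here, had 1.68, 2.08 and 2.65 FPKM in WT and 1.54, 2.38 and 2.95 in KO libraries (log2 difference 0.058, 95% interval -0.56 to 0.68; limma, adjusted p = 0.894), so the values of the neighbours did not move together. In the summed RNA of the INK4 genes, the Cdkn2a value includes any Arf RNA. Of this sum, Cdkn2d held 78.8% ± 2.88 in WT and 41.9% ± 8.39 in KO libraries. Cdkn2c held 12.5% ± 3.95 and 28.2% ± 4.47, and Cdkn2a 4.50% ± 2.54 and 27.5% ± 12.4 (SD, n = 3 each). The sum was 50.9, 125 and 34.6 FPKM in WT and 83.6, 91.2 and 112 in KO libraries, overlapping through WT 2.

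**Figure D3:**
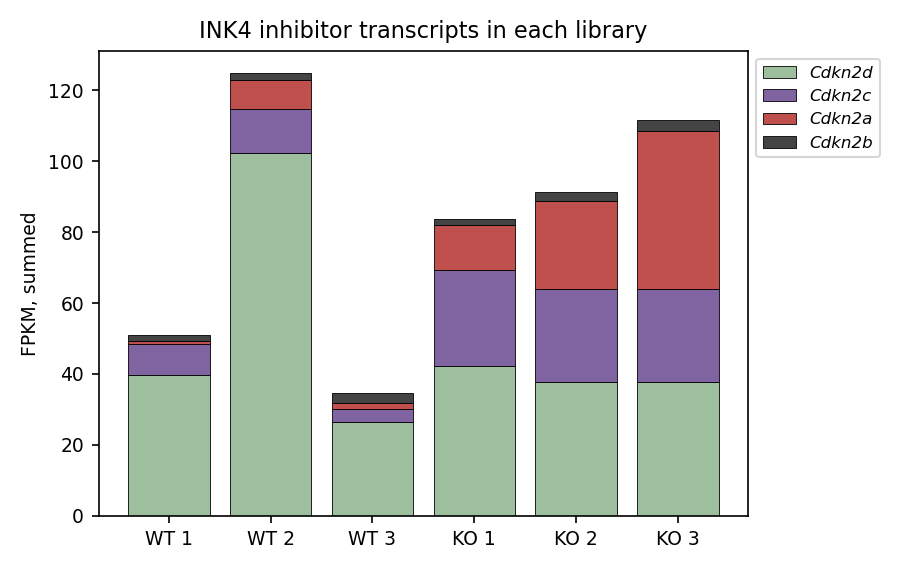
Summed FPKM of Cdkn2d, Cdkn2c, Cdkn2a and Cdkn2b (stacked bars from 0) in each library. Cdkn2d is most of the sum in each WT library, at least 76.4%, and at most 50.6% of it in KO libraries, where Cdkn2a and Cdkn2c take larger parts.

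Set side by side, RNA of the INK4 genes, any Arf RNA of Cdkn2a included, stood higher relative to D-type cyclin RNA in the KO libraries. The ratio of the summed FPKM was 0.556, 2.52 and 0.466 in WT and 2.84, 3.56 and 3.84 in KO libraries. WT 2 lay close to the KO libraries. The ratio of D-type cyclins to the sum of Cdk4 and Cdk6 was 1.93, 0.535 and 1.503 in WT and 0.497, 0.364 and 0.262 in KO libraries, again with WT 2 near the KO libraries. RNA ratios are descriptions and say nothing of protein.

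The order of levels per length also changed. By mean FPKM in WT libraries it ran Cdkn2d, Cdk4, Cdkn1b, Ccnd3, Ccnd2, Cdk6, Ccne1, Cdkn2c, Cdkn2a and Ccnd1, with each gene's range over the 3 libraries overlapping that of the next, except that Cdkn2a stood clear of Ccnd1. In KO libraries it ran Cdk4, Cdkn2d, Cdkn1b, Cdkn2a, Cdkn2c, Ccnd3, Cdk6, Ccne1, Ccnd2 and Ccnd1. The first 7 of these overlapped their neighbours, and Ccne1, Ccnd2 and Ccnd1 each stood clear below the gene before. The WT order rests in part on WT 2. By the mean of WT 1 and WT 3 it ran Cdkn1b, Ccnd2, Ccnd3, Cdkn2d, Cdk4, Cdk6, Ccne1, Cdkn2c, Cdkn2a and Ccnd1. Ccnd2 had rank 5 in WT libraries, rank 2 among them without WT 2 and rank 9 in KO libraries. Cdkn2d had rank 1, or 4 without WT 2, against 2 in KO libraries, and Cdkn2a had rank 9 in WT libraries, with or without WT 2, and 4 in KO libraries.

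**Figure D4:**
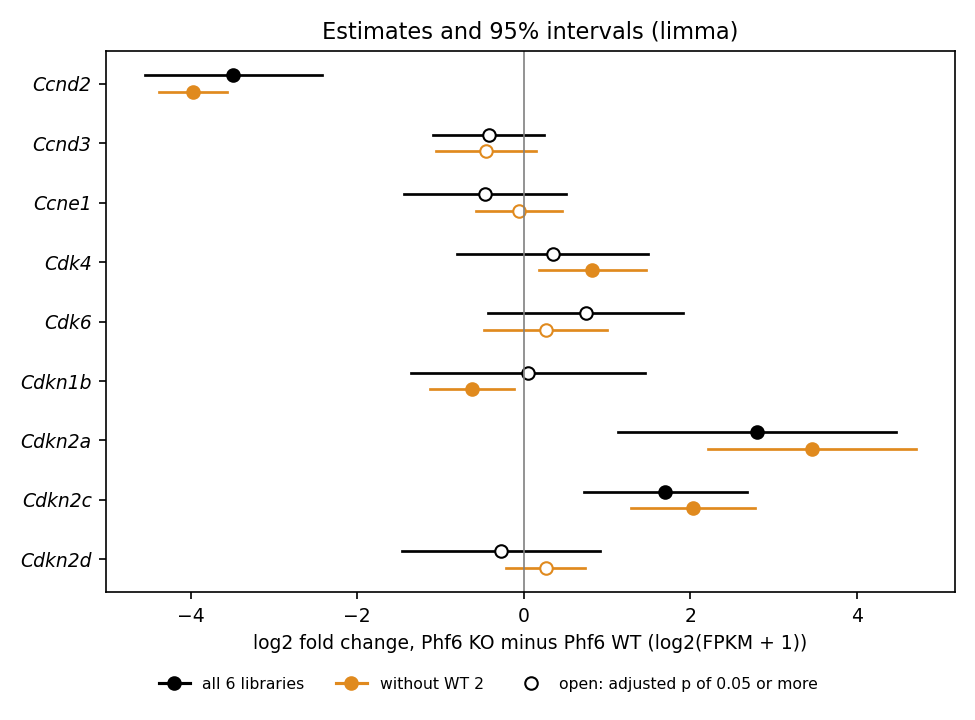
Difference between Phf6 KO and Phf6 WT in log2(FPKM + 1) for the 9 members tested, with 95% intervals from limma, over all 6 libraries (black) and without WT 2 (orange); filled points passed an adjusted p of 0.05. Ccnd2, Cdkn2a and Cdkn2c passed in both, Cdk4 and Cdkn1b without WT 2 alone.

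Leaving out WT 2 mattered to the count as well: 5 of the 9 members then passed, Ccnd2 and Cdkn1b lower and Cdk4, Cdkn2a and Cdkn2c higher, where 52% of all genes passed, 26.8% higher and 25.3% lower. WT 2 was the highest of the 6 libraries for 3 members (Ccne1, Cdk4 and Cdkn2d) and the lowest for 2 (Cdk6 and Cdkn1b). The gene lengths in the table were 2662, 3249 and 1574 bases for the first 3 and 13989 and 4552 for the last 2. After removal of a trend of the values on gene length, the same 3 members passed as over all libraries, with log2 differences of -3.74 for Ccnd2, 2.84 for Cdkn2a and 1.77 for Cdkn2c.

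The other genes that control entry into S phase were taken from a list of 26, of which 25 were tested. With limma 6 (24%) were higher in KO libraries, against 13.1% of all genes, and 0 were lower past the threshold, 10 higher and 1 lower at an unadjusted p under 0.05, and voom gave 6 and 0 as well. The median log2 difference was 0.77, against 0.086 over all genes. Cdk2, the kinase of cyclins E and A, had 9.21, 5.24 and 3.86 FPKM in WT and 17.8, 20.3 and 21.2 in KO libraries, a difference of 1.62 on the log2 scale (adjusted p = 0.0128). E2f3, an activating E2F factor, rose by 1.52 and Tfdp2, a partner of E2F factors, by 1.21 (adjusted p = 0.00467 and 0.0147). Skp2, part of the ligase that marks p27 for degradation, rose by 1.37, Cdc25a, the phosphatase that activates CDK2, by 1.04, and Ccnh, of the CDK-activating kinase, by 1.02 (adjusted p = 0.0109, 0.0349 and 0.0280). When WT 1, WT 2 or WT 3 was left out, 5, 12 and 4 were higher, and when KO 1, KO 2 or KO 3 was left out, 2, 1 and 2. The 12 without WT 2 are 48% of the list, where 26.8% of all genes were higher.

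The pocket proteins that D-type cyclins and CDK4 or CDK6 phosphorylate did not pass. Rb1 had 9.16, 5.87 and 6.44 FPKM in WT and 9.52, 9.55 and 12.7 in KO libraries without overlap (log2 difference 0.52, 95% interval -0.12 to 1.15; limma, adjusted p = 0.207). Rbl1 had 11.0, 2.97 and 9.64 against 14.4, 17.5 and 18.3 FPKM, also without overlap, and a log2 difference of 1.15 (adjusted p = 0.116), while Rbl2 overlapped (0.63, adjusted p = 0.628). E2f1 (0.83), Ccne2 (0.84) and Cdkn1a (-0.66), which encodes the CDK inhibitor p21, did not pass either (limma, adjusted p = 0.313, 0.137 and 0.477). Without WT 2, Rbl1 (0.64) and E2f1 (1.36) passed.

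**Figure D5:**
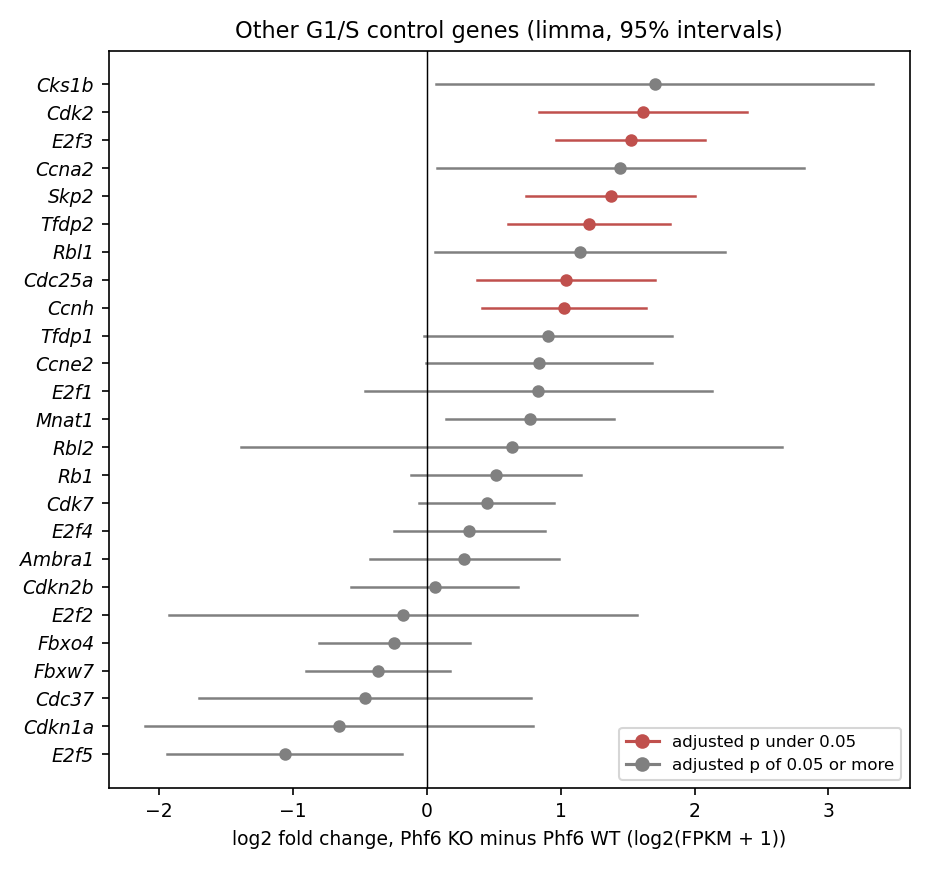
Difference between Phf6 KO and Phf6 WT in log2(FPKM + 1) for the 25 other G1/S control genes tested, with 95% intervals from limma; red points passed an adjusted p of 0.05. The 6 red genes, Cdk2, E2f3, Skp2, Tfdp2, Cdc25a and Ccnh, lie between 1.02 and 1.62.

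Regulators known to act on the members formed a list of 12, of which 11 were tested. Past the threshold 3 (27.3%) were higher and 1 lower, where 13.1% of all genes were higher and 13.3% lower. Notch3 and Notch1, whose signal induces Ccnd3 in T-ALL and thymocytes, were higher by 6.91 and 4.21 in log2 units (adjusted p = 0.000223 and 0.0126 by limma), and Stat5a, which acts on Ccnd2, by 1.78 (adjusted p = 0.00425). Notch1 did not pass without KO 1 (4.06, adjusted p = 0.0577) or KO 3 (4.22, 0.0531). Beside them, Ccnd2 was lower where Stat5a was higher, and Ccnd3 did not pass where Notch1 and Notch3 were higher. Whether these regulators acted on the members here was not tested. Foxo1, a factor that induces Cdkn1b, was the 1 lower gene and was chosen after its values were seen. It had 13.2, 9.20 and 13.3 FPKM in WT and 6.16, 4.10 and 3.30 in KO libraries, a log2 difference of -1.24 (limma, adjusted p = 0.0236). That call was lost without WT 1 (-1.16), WT 3 (-1.16), KO 2 (-1.20) or KO 3 (-1.08), with the replicate block and after rescaling to TPM (-0.57).

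Markers of proliferating cells were read beside the inhibitors. Of 12 tested, 4 (33.3%) were higher past the threshold, against 13.1% of all genes, with a median log2 difference of 1.49: Bub1 (1.80), Top2a (2.02), Ccnb1 (1.85) and, named after its values were seen, Plk1 (1.43). By limma their adjusted p lay at 0.0211 to 0.0458. When WT 1, WT 2 or WT 3 was left out, 2, 11 and 3 were higher, where 26.8% of all genes were higher without WT 2. When 1 KO library was left out, 0 passed by limma, with 6, 4 and 5 higher at an unadjusted p under 0.05, while the median stayed between 1.41 and 1.61. Summed over the list, the level was 132 to 342 FPKM in WT and 385 to 567 in KO libraries. Pcna (0.38) and Birc5 (1.26), named after their values were seen, overlapped between the groups and did not pass (limma, adjusted p = 0.463 and 0.306).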

How the data were processed

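Total RNA of BM, extracted with Trizol and made into libraries with a NEBNext kit per the labels, was sequenced in 3 Phf6 WT and 3 Phf6 KO libraries. The submitters' processing notes list HISAT2 2.0.5, featureCounts 1.5.0-p3 and GRCm38; the strand setting is not given in the sources used here. The deposited values are FPKM per gene, made by the authors. All FPKM above 0, multiplied by gene length, were whole multiples (100%, within 0.01 reads) of the smallest step of their library, which gave the reads. The library size behind the FPKM is not the sum of these reads, and median-of-ratios factors of the deposited FPKM were 1 in each library, so FPKM carry such a scaling. The median-of-ratios alternative therefore repeats the main fit. The floor of 3 reads stands at 0.161 to 0.255 FPKM for a gene of 1000 bases.

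The study modelled counts; because FPKM were deposited, log2(FPKM + 1) was tested here, which understates changes of low genes, with limma 3.58.1 (eBayes with trend, two-sided) in R 4.3.3, Benjamini-Hochberg adjustment and a threshold of 0.05. With 3 libraries in each group, exact permutation could not give a p under 0.1, so none is printed. The test was tried on simulated data with 200 changed genes, far fewer than were called here. The simulated noise was normal with the same spread per gene in both groups and held no library set apart like WT 2, so the rates need not hold here. The test called 47% of genes with a log2 change of 2 in size and 85% of those with 4, beside 11 false calls. A difference that did not pass is thus not shown to be absent. Promoters came from RefSeq (GRCm38.p6). The members and gene lists were chosen with earlier results of these data known. By rule the text names all members, Phf6, 9 fixed genes of the G1/S list with the 4 smallest p-values beside them, the 3 smallest of the regulator and proliferation lists and at most 2 markers of a cell type. Alternatives were pseudocounts of 0.1 and 0.5, no filter, a mean FPKM of at least 5, TPM, median-of-ratios, quantile and length corrections, eBayes without trend, array weights, a replicate block, voom on the reads and leaving out each library. Python 3.11.15, pandas 2.3.3 and Matplotlib 3.10.9 were also used.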

Additional observations from a re-analysis of the deposited data

How the results depend on the processing

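Ccnd2 kept its direction and its side of the threshold in all 18 alternatives, and the counts of members called kept theirs within 1.5 times except as given here. Over all genes 3539 were called, 1837 at a mean FPKM of at least 5, 8461 with array weights and between 1934 and 6967 when 1 library was left out. Members higher were 2, or 1 with no filter on low values and 0 to 3 with 1 library left out. Members lower were 1, or 3 with array weights (Ccnd2, Ccnd3 and Cdkn1b) and 1 to 2 with 1 library left out. Other G1/S genes higher were 6, or 10 after rescaling to TPM, 12 with array weights, 3 with the replicate block and 1 to 12 with 1 library left out; those lower were 0, or 1 with no filter, 1 after quantile normalization, 2 with array weights and 0 to 1 with 1 library left out. Rescaling to TPM moved the median log2 difference of all genes from 0.086 to 0.86, and reversed Ccnd3 (0.40), Ccne1 (0.30) and Cdkn2d (0.56), which then lay below that median. Cdkn2d was also reversed after quantile normalization (0.16), with array weights (0.028) and without WT 2 (0.27, with -0.69 to 0.27 over the libraries left out), and Cdkn1b with array weights (-0.64), without WT 2 (-0.62) and without KO 1 (-0.14). The cause of these changes was not tested. Deviations of same-numbered libraries from their group means had correlations of 0.0954, 0.105 and -0.153 over genes. With 3 libraries in each group such correlations cannot decide whether the numbers stand for pairs or batches. With the replicate block 2676 genes and the same count of members, 2 higher and 1 lower, were called. Ccnd1, at 11 to 37 reads, lies at the limit of the depth.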

Other observations

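Further genes that activate CDKs or serve the removal of G1 proteins were chosen after their values were seen. The CDK-activating kinase, which phosphorylates CDK4, CDK6 and CDK2, consists of Cdk7, Ccnh and Mnat1. Cdk7 had 6.94, 7.30 and 7.19 FPKM in WT and 9.31, 11.0 and 10.1 in KO libraries, and Mnat1 had 2.17, 3.46 and 2.02 against 4.27, 4.95 and 5.74. The groups overlapped in neither, as in Ccnh, but Cdk7 and Mnat1 did not pass over all libraries (log2 differences of 0.45 and 0.77; limma, adjusted p = 0.177 and 0.0752) and both did without WT 2 (0.46 and 0.95). Ambra1, which serves the degradation of D-type cyclins, had 9.03, 6.29 and 11.4 FPKM in WT and 13.1, 8.65 and 10.9 in KO libraries (log2 difference 0.28, 95% interval -0.43 to 0.99; adjusted p = 0.538). Fbxw7, which serves that of cyclin E, had 8.89, 8.08 and 8.91 against 7.52, 5.72 and 6.28 FPKM, without overlap (-0.36, 95% interval -0.90 to 0.17; adjusted p = 0.285).

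Cdkn1c, the gene of the CDK inhibitor p57, was the 1 gene of the G1/S list under the filter. It had 7, 11 and 14 reads in WT and 2, 1 and 0 reads in KO libraries, the latter all under the floor of 3 reads.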
